A study of Mus musculus with 9 samples.

Results

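The Gbp and Irg genes encode GTPases that mouse cells make in response to interferon. The 8 genes followed here were the guanylate-binding protein genes Gbp2, Gbp3, Gbp7 and Gbp9, and the immunity-related GTPase genes Irgm1, Irgm2, Igtp and Iigp1. They were chosen by gene name, and all 8 of 8 were found among the 54532 genes of the deposited count table and passed the filter on low counts that left 13326 genes to test. RNA came from RENCA, a mouse renal carcinoma line, in 3 forms with 3 libraries each. Rescue cells (genotype NDUFA4L2 +/+ in the labels) are described as knockout cells that took up an NDUFA4L2 lentivirus and were selected with puromycin. Knockout cells (NDUFA4L2 -/-) came from colonies of single edited cells, made with CRISPR and a guide RNA against the gene. Empty-vector cells were labelled wild type (WT) and carried the empty vector. The labels do not say how many clones were sequenced, nor whether the empty-vector cells were cloned or given puromycin, so re-expression or gene loss cannot be told apart from the choice of clone, the virus or the selection.

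Guanylate-binding proteins and immunity-related GTPases are part of cell-autonomous defence. After interferon binds its receptor, transcription factors enter the nucleus and bind the interferon-stimulated response element (ISRE, the site of a complex that holds IRF9, and of other IRF proteins) or the gamma-activated site (GAS). The GTPases then load onto vacuoles and membranes that hold intracellular parasites or bacteria. Among the immunity-related GTPases, the Irgm proteins (Irgm1, Irgm2 and Igtp, also called Irgm3) sit on the cell's own membranes and hold effector GTPases such as Iigp1 (Irga6) inactive there.

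Every one of the 8 members was lower in rescue cells than in knockout cells and than in empty-vector cells, while the knockout cells split the family. Igtp, Gbp2, Gbp3 and Gbp7 were higher in knockout cells than in empty-vector cells, by 2.75-fold to 6.56-fold. Irgm1 and Irgm2, the other regulators, differed between these lines by less than the spread of the libraries. Gbp9 and Iigp1 had few reads and their differences did not pass the test. Summed over the 8 genes, the libraries held 34.1 ± 0.955 CPM (counts set to a common library size, scaled by TMM factors) in rescue cells, 179 ± 1.18 in knockout cells and 120 ± 15.7 in empty-vector cells (SD, n = 3 each). In such bulk RNA, fewer cells that express a gene and less of its RNA per cell cannot be told apart.

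The promoters are shown because the interferon-responsive letters lie close to an annotated start in each of the 6 genes examined. RefSeq promoters (GRCm38.p6, from 250 bases before to 50 bases after the annotated start) were matched by symbol for 6 of the 8 members. The ISRE was searched on both strands as GAAA, any 2 bases and GAAA, and the GAS as TTCNNNGAA, whose letters read the same on both strands. Counted by gene, ISRE letters were present in 6 of 6 and GAS letters in 3 of 6 (Gbp7, Irgm2 and Igtp), though a second promoter of Gbp3 held neither. Among all 32851 promoters of the same length, counted by promoter and not by gene, 3.44% held the ISRE letters and 8.3% the GAS letters. A match is a description of the letters and not of binding. The stretches around the ISRE letters follow in the 5′ to 3′ direction of the gene, with ISRE and GAS letters in capitals. The first match of Gbp3 and of Irgm1 overlaps the second by 4 bases.
Igtp, chr11:58199510-58199543, plus strand: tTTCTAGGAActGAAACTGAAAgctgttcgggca
Irgm2, chr11:58214901-58214934, plus strand: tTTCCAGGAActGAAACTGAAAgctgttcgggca
Irgm1, chr11:48871423-48871462, minus strand: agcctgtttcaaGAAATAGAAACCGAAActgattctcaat
Gbp7, chr3:142530271-142530304, plus strand: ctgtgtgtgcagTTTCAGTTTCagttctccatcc
Gbp3, chr3:142559987-142560026, plus strand: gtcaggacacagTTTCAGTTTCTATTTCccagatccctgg
Gbp2, chr3:142620592-142620625, plus strand: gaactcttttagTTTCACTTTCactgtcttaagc

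In the 3 Irg genes the GAAA letters read on the strand of the gene, and in the 3 Gbp genes on the other. Between the nearest ISRE letters and the start lay 24 bases in Igtp, 54 in Irgm2, 14 in Irgm1, 43 in Gbp7, 29 in Gbp3 and 49 in Gbp2. A second annotated start of Gbp3 held neither motif. Igtp and Irgm2 lie beside each other on the plus strand of chromosome 11, and their promoters are near copies: 244 of 265 aligned bases (92.1%) were identical. The whole windows of both are given because these neighbours differed from each other in the knockout cells, as described further on. The RefSeq start of Irgm2 lies downstream of the start of its gene model in the count table.
Igtp, chr11:58199306-58199605, plus strand: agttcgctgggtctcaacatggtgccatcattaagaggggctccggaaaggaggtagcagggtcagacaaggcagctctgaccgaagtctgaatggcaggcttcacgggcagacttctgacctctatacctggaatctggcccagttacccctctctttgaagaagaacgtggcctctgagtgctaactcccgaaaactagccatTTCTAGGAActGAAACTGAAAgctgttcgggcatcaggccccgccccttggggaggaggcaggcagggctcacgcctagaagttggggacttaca
Irgm2, chr11:58214727-58215026, plus strand: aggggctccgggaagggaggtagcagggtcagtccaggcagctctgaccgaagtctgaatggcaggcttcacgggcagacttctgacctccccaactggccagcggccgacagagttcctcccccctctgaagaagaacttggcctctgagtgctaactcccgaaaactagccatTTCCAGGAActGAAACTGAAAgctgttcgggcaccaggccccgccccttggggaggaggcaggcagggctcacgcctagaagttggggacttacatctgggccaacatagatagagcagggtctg

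**Figure D1:**
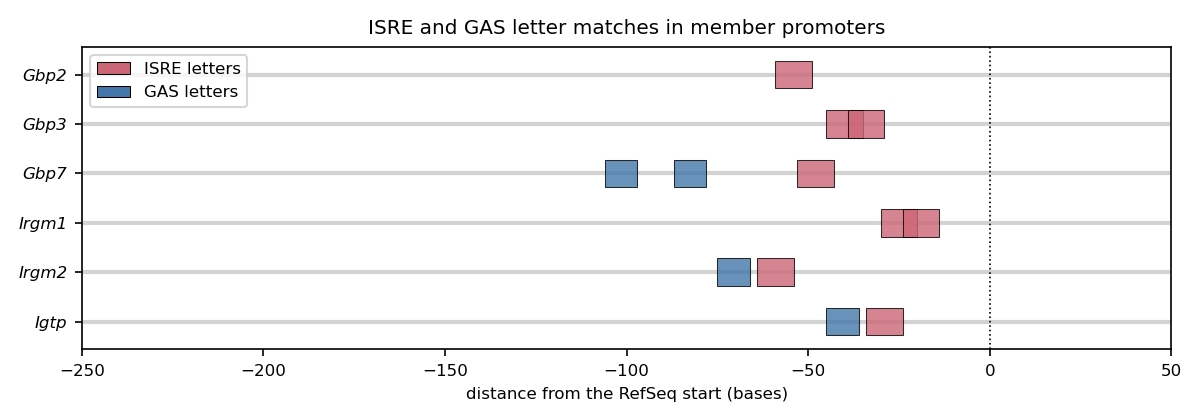
Positions of the ISRE letters (both strands) and GAS letters in the promoters of 6 members, by distance in bases from the RefSeq start. Each of the 6 windows drawn holds ISRE letters between positions -64 and -15, and Gbp7, Irgm2 and Igtp hold GAS letters further out. The second start of Gbp3, with neither motif, is not drawn.

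Total counts ran from 13106531 to 26643877 per library, and the mitochondrial genome took 2.23% to 2.65% of them in rescue cells, 5.79% to 7.93% in knockout cells and 2.16% to 3.17% in empty-vector cells. The edited gene, Ndufa4l2, had 73, 48 and 35 counts in the rescue libraries, 7, 8 and 6 in the knockout libraries and 12, 6 and 16 in the empty-vector libraries. Rescue stood above the other lines, while knockout and empty vector overlapped (log2 change -0.36; edgeR adjusted p = 0.47), so mRNA counts give no check of the knockout. The kidney epithelial genes Pax8, Pax2, Cdh16, Krt8 and Krt18 were expressed in all 9 libraries, while Epcam and Krt19 had at most 1 count in any. The summed level of the 12 genes listed as kidney epithelial was 1949 to 2013 CPM in rescue, 2493 to 2694 CPM in knockout and 1451 to 1734 CPM in empty vector. The largest part was Vim, which is not specific to epithelium, at 638 CPM in rescue, 908 CPM in knockout and 478 CPM in empty vector. Cdh1, the epithelial cadherin, moved like the members, at 2.46 CPM in rescue, 99.6 CPM in knockout and 11.9 CPM in empty vector, and Pax8 was lowest in knockout, at 165 CPM in rescue, 98.6 CPM in knockout and 237 CPM in empty vector. Of 18 leukocyte marker genes, 12 had at most 3 counts in every library, among them Ptprc, Cd3e, Cd8a, Nkg7 and Ncr1. The 4 that were tested, Cd68, Lyz2, Csf1r and Cd79a, all rose in knockout against empty vector (log2 changes 1.43, 2.96, 1.83 and 0.61) and fell in rescue against knockout (-2.52, -2.66, -1.48 and -0.78). Against empty vector Cd68 alone of these was called in rescue (-1.09). The summed level of the 18 was 39.0 to 44.6 CPM in rescue, 211.6 to 228.0 CPM in knockout and 78.4 to 84.3 CPM in empty vector, most of it Cd68. Of 10 endothelial and fibroblast genes, 5 had at most 3 counts in every library. The sum of all 10 was 29.0 to 30.9 CPM in rescue, 61.0 to 72.5 CPM in knockout and 26.9 to 33.8 CPM in empty vector, most of it Pdgfrb. The part of these values in the changes of the GTPase genes was not tested.

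Igtp, a regulator on the endoplasmic reticulum that mice need to resist Toxoplasma gondii, is encoded on chromosome 11 at 58199556 to 58207591 (plus strand, mm10 coordinates of the deposited table). Its level was 4.95, 3.45 and 4.53 CPM in the rescue libraries, 45.6, 41.6 and 41.2 CPM in the knockout libraries and 12.8, 16.7 and 17.2 CPM in the empty-vector libraries. No library of any group overlapped another group. In knockout against empty vector it rose 2.75-fold, a log2 change of 1.46 ± 0.11 (SE; edgeR adjusted p = 2.5e-09). In rescue it fell by 3.29 log2 units against knockout (SE 0.13; edgeR adjusted p = 3.2e-13) and by 1.83 against empty vector (SE 0.14; edgeR adjusted p = 6.8e-09).

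Irgm2 is the second regulator of this group and its gene model in the table (chromosome 11, 58199618 to 58222782, plus strand) begins inside that of Igtp. Irgm2 stood at 4.99, 5.59 and 5.28 CPM in the rescue libraries, at 24.5, 30.0 and 27.5 CPM in the knockout libraries and at 25.6, 30.2 and 29.4 CPM in the empty-vector libraries. Knockout and empty-vector libraries overlapped, and all 3 rescue libraries lay far below both. The log2 change of knockout against empty vector was -0.054, with a 95% interval of -0.25 to 0.14 (edgeR adjusted p = 0.63). In rescue it fell by 2.37 log2 units against knockout (SE 0.11; edgeR adjusted p = 1.1e-12) and by 2.43 against empty vector (SE 0.11; edgeR adjusted p = 5.3e-12). The 2 gene models share 162 exon bases, 4.39% of the exon bases of Irgm2 and 8.01% of those of Igtp. Of the 50-base windows of their transcripts, 6.79% of those of Irgm2 and 11.8% of those of Igtp occur in the other gene, so some reads may have been lost or assigned to the neighbour.

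Irgm1, which mice need for resistance to mycobacteria and which has been tied to autophagy, lies elsewhere on chromosome 11 (48861968 to 48871683, minus strand). Its level was 20.1, 21.6 and 21.8 CPM in rescue, 68.9, 65.3 and 71.7 CPM in knockout and 54.5, 68.1 and 69.9 CPM in empty vector. As for Irgm2, the knockout and empty-vector libraries overlapped and the rescue libraries stood apart. Knockout against empty vector gave 0.10 log2 units, with a 95% interval of -0.07 to 0.27 (edgeR adjusted p = 0.29). With library totals alone as the scale this value was -0.056. Rescue fell by 1.70 against knockout (SE 0.09; edgeR adjusted p = 5.5e-12), which was the smallest of the 8 decreases, and by 1.60 against empty vector (SE 0.09; edgeR adjusted p = 8e-11).

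Iigp1, an effector GTPase that Toxoplasma vacuoles recruit, lies on chromosome 18 (60376029 to 60392627, plus strand) and was near the limit of detection in rescue cells. It had 4, 4 and 2 counts in the rescue libraries, 25, 27 and 44 in the knockout libraries and 22, 23 and 39 in the empty-vector libraries. As levels these were 0.143, 0.219 and 0.126 CPM in rescue, 1.59, 2.23 and 1.85 CPM in knockout and 0.977, 1.48 and 1.56 CPM in empty vector. The knockout libraries lay just above the empty-vector ones, with a log2 change of 0.49 and a 95% interval of -0.09 to 1.07 (edgeR adjusted p = 0.14). Without empty-vector replicate 1 the change was 0.30. Rescue fell by 3.49 log2 units against knockout (SE 0.40; edgeR adjusted p = 3.7e-07) and by 3.00 against empty vector (SE 0.41; edgeR adjusted p = 7.1e-06). The second of these was the largest decrease of a member in that comparison.

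Gbp2, Gbp3 and Gbp7 lie in a cluster on the plus strand of chromosome 3. Gbp7, which is known to take part in the oxidative defence of macrophages, spans 142530342 to 142550149. Its level was 1.60, 1.15 and 1.57 CPM in the rescue libraries, 14.2, 14.4 and 15.3 CPM in the knockout libraries and 3.11, 4.44 and 3.45 CPM in the empty-vector libraries. The 3 groups did not overlap, and the knockout libraries differed little among themselves. In knockout it was 4.05-fold the empty-vector level (edgeR adjusted p = 7.7e-10), and rescue fell by 3.33 log2 units against knockout (SE 0.17; edgeR adjusted p = 4.2e-12) and by 1.31 against empty vector (SE 0.19; edgeR adjusted p = 1.5e-05). A pseudogene on the same strand, Gm43802, covers 11.3% of its exon bases, so part of its reads may have gone uncounted.

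Gbp3 (chromosome 3, 142560026 to 142573209) stood at 0.962, 1.26 and 1.13 CPM in rescue, 18.7, 17.7 and 13.9 CPM in knockout and 3.68, 6.24 and 4.77 CPM in empty vector. Here too the groups did not overlap. Knockout was above empty vector by 1.79 ± 0.16 on the log2 scale (SE; edgeR adjusted p = 1.9e-08). Rescue fell by 3.91 against knockout, a 15.1-fold lower level (SE 0.20; edgeR adjusted p = 7.6e-12), and by 2.13 against empty vector (SE 0.23; edgeR adjusted p = 4.3e-07).

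Gbp2 (chromosome 3, 142620602 to 142638008), whose protein carries a lipid anchor and restricts Toxoplasma, showed the largest increase of the 8 in knockout cells. It had 12, 4 and 4 counts in the rescue libraries, 85, 54 and 113 in the knockout libraries and 10, 10 and 27 in the empty-vector libraries. The corresponding levels were 0.428, 0.219 and 0.252 CPM in rescue, 5.40, 4.46 and 4.76 CPM in knockout and 0.444, 0.643 and 1.08 CPM in empty vector. Rescue and empty vector were close to touching, and only the knockout libraries were all over the minimum used to select genes for testing (0.574 CPM). In knockout the gene rose 6.56-fold over empty vector, a log2 change of 2.71 ± 0.28 (SE; edgeR adjusted p = 8.8e-08), and rescue fell by 3.91 against knockout (SE 0.33; edgeR adjusted p = 4.8e-09). The decrease of 1.20 in rescue against empty vector (SE 0.41; edgeR adjusted p = 0.022) was not called without empty-vector replicate 3, where it was -0.72 (edgeR adjusted p = 0.22), nor without rescue replicate 2 (-1.03; edgeR adjusted p = 0.08) or rescue replicate 3 (-1.10; edgeR adjusted p = 0.062).

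Gbp9, on the minus strand of chromosome 5 (105077630 to 105139539), had 3, 6 and 7 counts in rescue, 19, 34 and 37 in knockout and 14, 21 and 32 in empty vector. Knockout and empty vector overlapped, at 1.21, 2.81 and 1.56 CPM in knockout and 0.621, 1.35 and 1.28 CPM in empty vector, and the log2 change was 0.74 with a 95% interval of -0.05 to 1.53 (edgeR adjusted p = 0.098). It was 0.38 without knockout replicate 2 and 0.46 without empty-vector replicate 1, and was not called without any 1 library. Rescue fell by 2.74 log2 units against knockout (SE 0.48; edgeR adjusted p = 7.9e-05) and by 2.00 against empty vector (SE 0.51; edgeR adjusted p = 0.0031). Of its 50-base windows 8.05% occur in other genes, chiefly Gbp8, Gbp4 and Gbp6 of the same cluster, so its counts are uncertain.

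**Figure D2:**
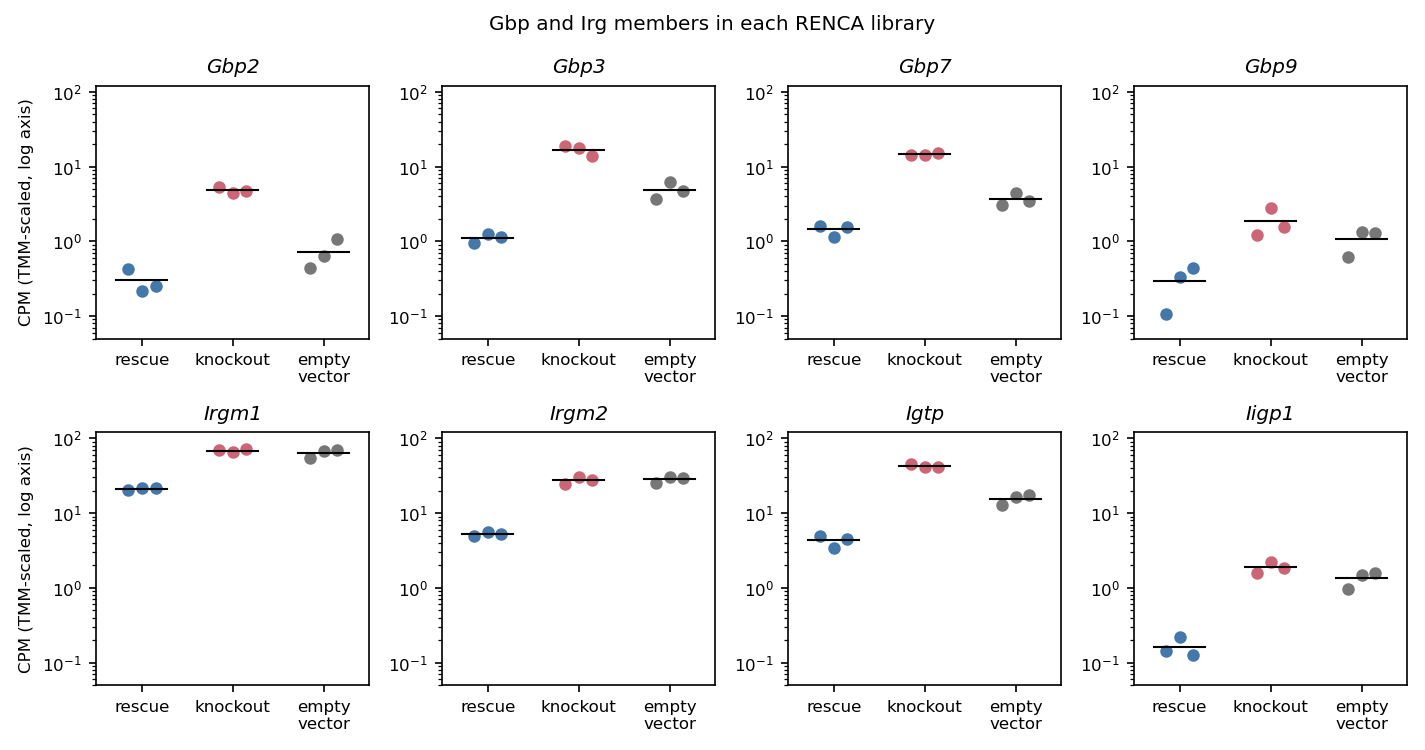
Level of each of the 8 members in CPM scaled by TMM factors (log axis) in each library, with rescue left, knockout in the middle and empty vector right. Points are single libraries and lines are group means of 3 libraries. Rescue libraries are lowest in all 8 panels, and the knockout libraries stand clear of the empty-vector ones for Gbp2, Gbp3, Gbp7 and Igtp and, by a narrow margin, Iigp1.

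Counted together, 4 of 8 members rose and none fell in knockout against empty vector, where the same threshold (edgeR adjusted p under 0.05) called 29.5% of all tested genes higher and 31.1% lower. With Iigp1, 5 had all knockout libraries above all empty-vector libraries, as had 30.8% of tested genes. The median log2 change was 1.10 over the 8 and -0.02 over all tested genes. In rescue against knockout 8 of 8 fell, where 27.3% of all tested genes fell, with a median of -3.31 over the members and 0.03 over all genes. All 8 fell by more than 1 log2 unit, as did 8.4% of all tested genes, and had no overlap between the lines, as had 30.7% in that direction. In rescue against empty vector 8 of 8 fell as well, where 25.1% of all tested genes fell, with a median of -1.92 over the members and -0.02 over all genes. Again all 8 fell by more than 1 log2 unit, as did 3.29% of tested genes, and all 8 lay below empty vector without overlap, as did 28.6%. Gbp2, Gbp9 and Iigp1 had no rescue library over the 0.574 CPM of the filter on low counts. These 3 were tested only because other lines were over it, so they add little to the 8 of 8 that fell. Gbp2 had all 3 libraries over it in knockout alone, so it adds little to the 4 of 8 that rose. The 3 comparisons share libraries and are not independent of each other. Replicates are not stated to be separate cultures, so these p-values measure the spread between libraries, which may be technical.

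**Figure D3:**
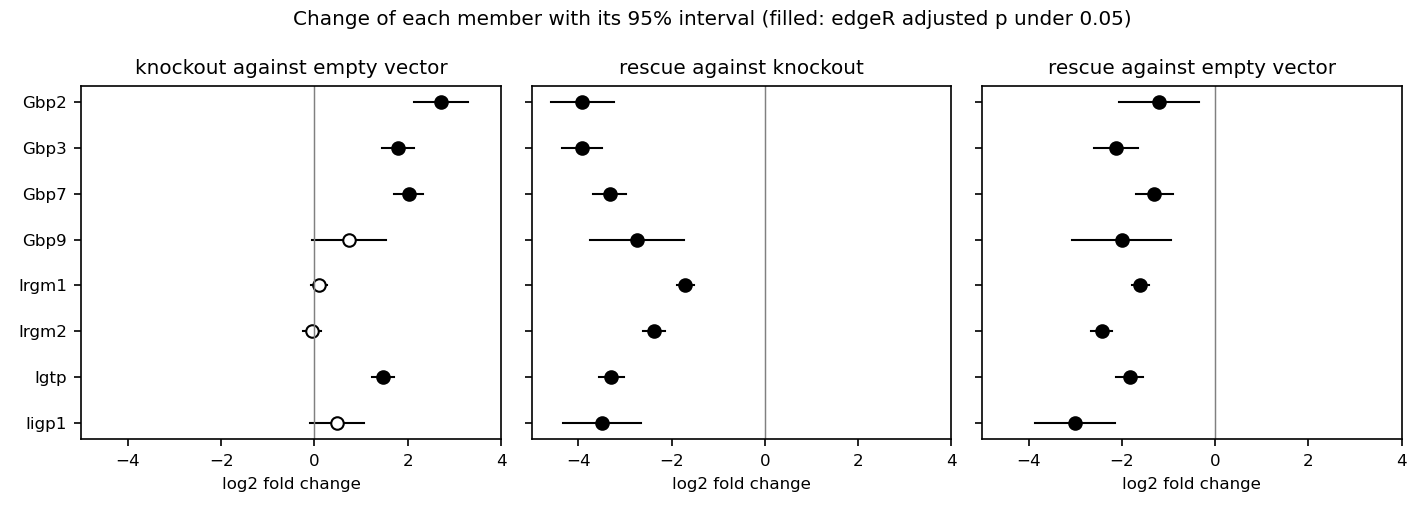
Log2 fold change of each member in the 3 comparisons, with bars for the 95% interval and filled points where the edgeR adjusted p is under 0.05. All 8 points lie left of 0 in both rescue comparisons, and in knockout against empty vector Irgm1 (0.10) and Irgm2 (-0.054) lie at 0 beside Igtp at 1.46.

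The ratio of reads of a pair of members within a library needs no scaling between libraries. Igtp had 0.993, 0.618 and 0.857 reads per Irgm2 read in the rescue libraries, 1.86, 1.39 and 1.50 in the knockout libraries and 0.499, 0.552 and 0.587 in the empty-vector libraries. Its ratio was thus highest in all 3 knockout libraries, with means of 1.58 ± 0.247 in knockout and 0.546 ± 0.0445 in empty vector (SD, n = 3 each). The ratio of Igtp to Irgm1 was 0.204 ± 0.0431 in rescue, 0.624 ± 0.0449 in knockout and 0.242 ± 0.00644 in empty vector. Between rescue and empty vector this ratio overlapped (exact permutation p = 0.30). For Irgm1 over Irgm2 the means were 4.01 ± 0.136 in rescue, 2.53 ± 0.321 in knockout and 2.25 ± 0.127 in empty vector, so that Irgm2 fell further than Irgm1 in rescue cells. With 3 libraries against 3, a two-sided exact permutation test cannot give less than p = 0.10, which the differences without overlap reached; adjusted over the 12 ratio comparisons made, this was 0.15.

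**Figure D4:**
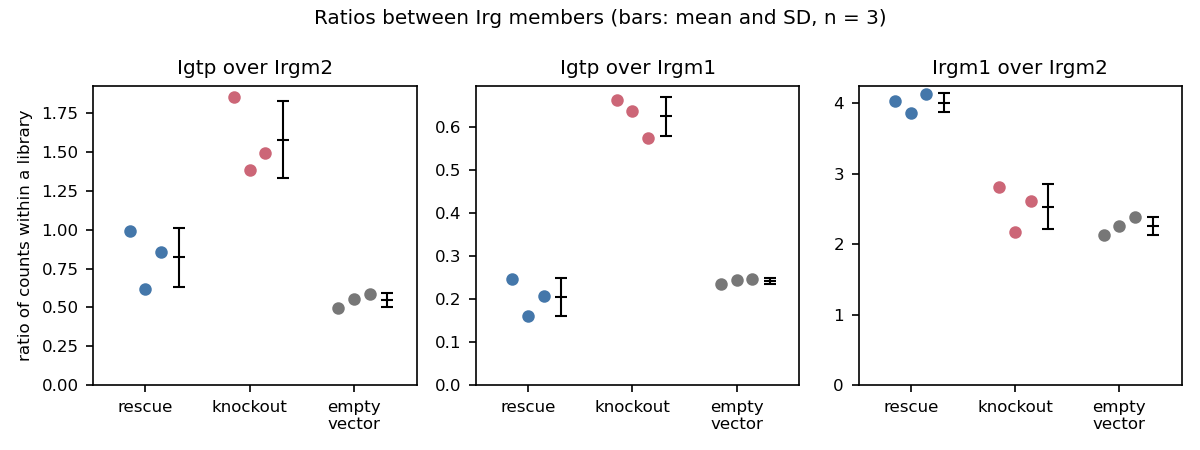
Ratio of counts between the 3 Irgm regulators within each library (points), with mean and SD of 3 libraries at the right of each group. Igtp per Irgm2 read and Igtp per Irgm1 read are highest in knockout, at 1.58 and 0.624, and Irgm1 per Irgm2 read is highest in rescue, at 4.01.

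Per length, the order of the members differed between the lines at its top. In FPKM, which divides by gene length and library depth and was deposited with the counts, Igtp led in knockout cells at 21.2 ± 1.26, above Irgm1 at 11.8 ± 0.532 and Irgm2 at 7.41 ± 0.731 (SD, n = 3). In rescue cells Irgm1 led at 3.62 ± 0.161, followed by Igtp at 2.12 ± 0.377 and Irgm2 at 1.42 ± 0.0830. In empty-vector cells Irgm1 led likewise at 10.9 ± 1.34, and Igtp at 7.60 ± 1.12 and Irgm2 at 7.60 ± 0.576 overlapped. Gbp3 and then Gbp7 came next in all 3 lines, at 0.340 and 0.255 FPKM in rescue, 5.13 and 2.61 in knockout and 1.48 and 0.644 in empty vector. Gbp2, Iigp1 and Gbp9 were the lowest 3 in every line. Of these, the libraries of Gbp9 and Iigp1 overlapped in rescue and in knockout, and those of Gbp2 overlapped with both in empty vector. CPM per kilobase gave the same order in each line, but it divides the same counts by the same lengths and is no separate check. The deposited length of Iigp1 was 3121 bases, against 5823 exon bases in the GENCODE M21 annotation, so its place within the lowest 3 is uncertain.

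Other genes of the 2 families were mostly silent. Of 19 further Gbp and Irg genes, 8 passed the filter on low counts, and Gbp6, Gbp8, Gbp10, Gbp11, Gm12250 and Irgc1 never exceeded 8 counts. At the same threshold 29.5% of all 13326 tested genes rose and 31.1% fell in knockout against empty vector. In rescue, 3928 of them rose and 27.3% fell against knockout, and 2988 rose and 25.1% fell against empty vector. These shares serve for each list below. Of the 8 further genes, 4 rose and none fell in knockout against empty vector. In rescue 6 fell against knockout and 6 fell against empty vector. Against empty vector 3 fell without empty-vector replicate 2 or 3 or rescue replicate 2, in the fit of those lines alone, or among genes of at least 1 CPM on average, where 3 fell against knockout too. Gbp2b, Gbp4, Tgtp1, Tgtp2 and Gvin1 had at most 0.438 CPM in any rescue library, under the 0.574 CPM of the filter. These were tested only because other lines were over it, so they add little to the counts that fell in rescue. Gbp2b, a close relative of Gbp2, was higher in knockout by 2.28 ± 0.28 on the log2 scale (SE; edgeR adjusted p = 1e-06) and fell in rescue against knockout by 4.22 (edgeR adjusted p = 6.9e-09). Tgtp1 and Tgtp2, 2 near-identical effector Irg genes whose reads cannot be cleanly split, rose by 1.58 and 1.45 in knockout and fell by 3.02 and 3.94 in rescue against knockout. The very large interferon-inducible GTPase Gvin1 had 2, 0 and 1 counts in rescue, 11, 9 and 7 in knockout and 11, 12 and 12 in empty vector, which resembles Irgm1 and Irgm2 in that it was called in both rescue comparisons and not in knockout against empty vector (log2 change -0.064). Irgq, an Irg-related gene, moved least among those that fell in rescue against knockout, by 0.33. Gbp4 had 0.32 and the pair 9930111J21Rik1 and 9930111J21Rik2 -0.50 and -0.43 in knockout against empty vector, and none of these passed. The libraries of this pair overlapped in rescue against empty vector, where both were called (-0.59 and -0.62).

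Of the interferon genes, 4 were examined, and they were not detected at this depth or nearly so. Ifng, Ifnl2 and Ifnl3 had 0 counts in all 9 libraries, and Ifnb1 had 0, 0 and 0 counts in rescue, 0, 1 and 4 in knockout and 4, 0 and 1 in empty vector. Receptor genes were expressed throughout and 4 subunits rose in knockout against empty vector. The interferon-gamma receptor chain Ifngr1 rose by 0.86 ± 0.10 log2 units (SE) and Ifngr2 by 0.55 ± 0.07, and the type I receptor chains Ifnar1 and Ifnar2 by 0.43 ± 0.07 and 0.60 ± 0.07, with edgeR adjusted p of at most 3.8e-05. Against knockout all 4 fell in rescue, Ifnar2 the most, by 1.09 ± 0.07, and Ifngr1 the least, by 0.38. Ifngr1 stayed above empty vector in rescue (0.48 ± 0.10; edgeR adjusted p = 0.0012), where all 8 GTPase genes were below it. Of the receptor-bound kinases, Jak1 and Jak2 passed in no comparison and Tyk2 rose in knockout by 0.40. Over the whole group of 13 ligands, receptors and kinases, 9 were tested; 5 rose and none fell in knockout against empty vector, none rose and 7 fell in rescue against knockout, and 1 rose and 4 fell in rescue against empty vector.

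Of 10 transcription factors of the response, 9 were tested; 4 rose and 1 fell in knockout against empty vector, none rose and 5 fell in rescue against knockout, and 1 rose and 4 fell in rescue against empty vector. In knockout against empty vector 3 fell without empty-vector replicate 1 or with library totals as the scale, and 2 without knockout replicate 3; none rose in rescue against empty vector without empty-vector replicate 2 or 3 or rescue replicate 2. Irf9, a DNA-binding partner of Stat2, stood at 22.9 ± 1.45 CPM in rescue, 51.0 ± 2.36 in knockout and 67.3 ± 5.47 in empty vector (SD, n = 3 each). It therefore fell in knockout too, by 0.40 (edgeR adjusted p = 8.5e-05), in contrast with Stat2, which rose by 0.69. Irf1, the factor that interferon-gamma induces first, passed in no comparison, with a log2 change of -0.13 in knockout against empty vector, and in rescue 0.016 against knockout and -0.11 against empty vector. Batf2 rose in knockout (1.32 ± 0.38; edgeR adjusted p = 0.005), and the class I transactivator Nlrc5 did not (-0.48; edgeR adjusted p = 0.16), while both fell in rescue, with -4.53 and -2.55 against knockout. Batf2 had few counts: 3, 0 and 0 in rescue, 20, 15 and 29 in knockout and 9, 9 and 13 in empty vector. Only its knockout libraries were all over the filter's 0.574 CPM, so it adds little to the 4 that rose. Neither Batf2 nor Nlrc5 had a rescue library over it, so both add little to the counts that fell in rescue.

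Among 9 brakes of the pathway, 3 rose and 3 fell in knockout against empty vector, 3 rose and 1 fell in rescue against knockout, and 3 rose and 2 fell in rescue against empty vector. The counts that rose, and the 3 that fell in knockout, lay near the shares of all genes. In rescue against knockout 5 rose without empty-vector replicate 1, and 7 with library totals as the scale. Usp18, which removes ISG15 and blocks the type I receptor, moved like the members: it stood at 7.27 ± 0.798 CPM in rescue, 57.3 ± 1.45 in knockout and 31.2 ± 4.57 in empty vector. The phosphatase Ptpn2 and the SUMO ligase Pias1 moved the other way, with -0.50 and -0.53 in knockout against empty vector and 0.63 and 0.49 in rescue against knockout. Socs1, the feedback inhibitor of interferon-gamma signalling, was called in rescue against empty vector alone among the 3 comparisons (-0.86; edgeR adjusted p = 0.0075).

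Genes typical of the interferon-gamma response did not move as 1 group in the comparisons with knockout. In rescue against empty vector, those that were called all fell. Of 16 listed, 12 were tested. In knockout against empty vector 4 rose and 5 fell, in rescue against knockout 3 rose and 7 fell, and in rescue against empty vector none rose and 9 fell. The 4 that rose in knockout and the 3 that rose in rescue lay near the shares of all genes. The peptide transporter Tap1 and the immunoproteasome subunit Psmb8 rose in knockout by 0.54 and 0.77 and fell in rescue against knockout by 2.07 and 1.59. Cd74, the invariant chain of MHC class II, and Cd274, the checkpoint ligand PD-L1, fell in knockout by 1.14 and 0.45. Ido1 had 0 counts in all libraries.

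**Figure D5:**
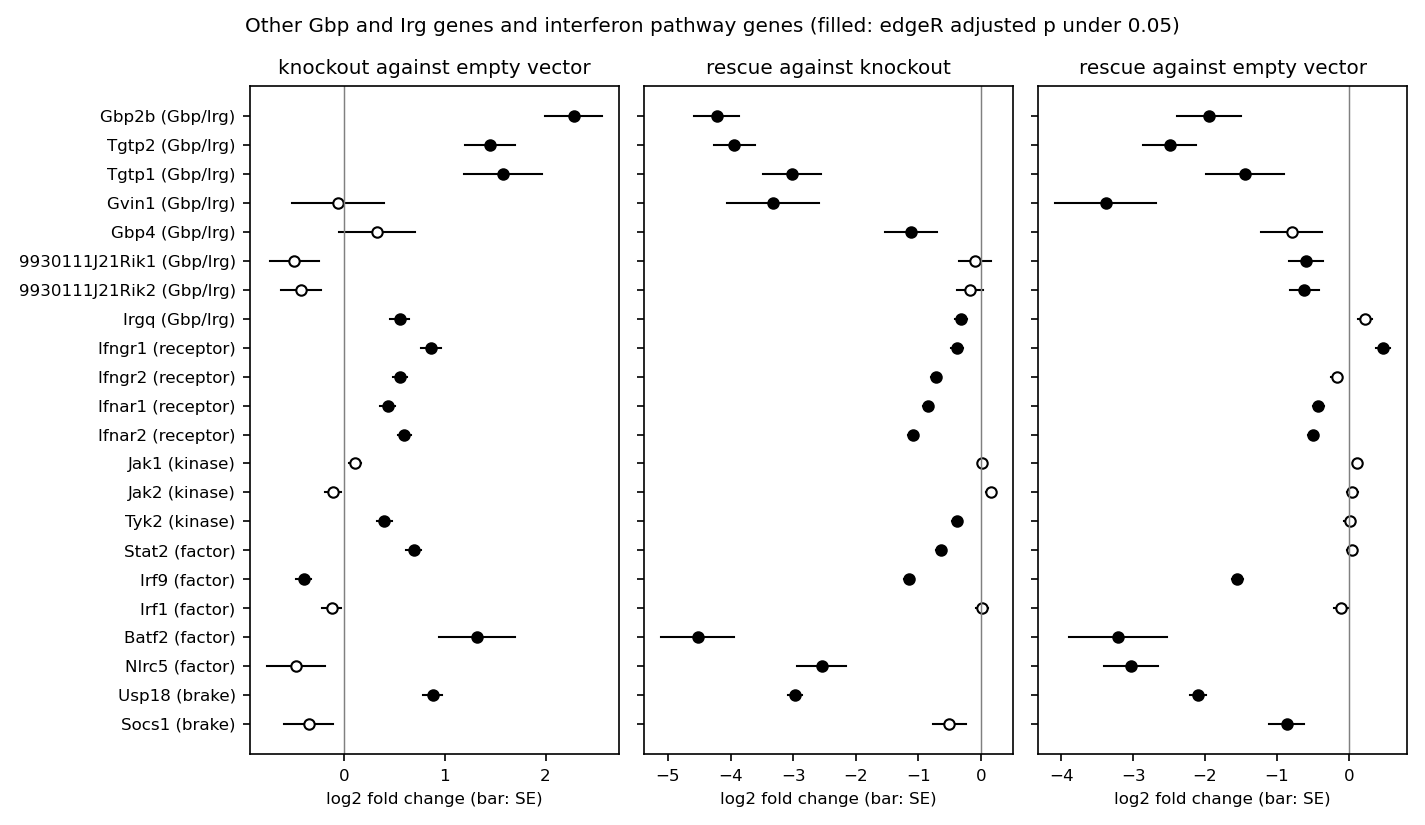
Log2 fold change with its SE (bars) of the 8 other tested Gbp and Irg genes and of selected receptors, kinases, transcription factors and brakes in the 3 comparisons; points are filled where the edgeR adjusted p is under 0.05. Gbp2b, Tgtp1, Tgtp2, Batf2 and Usp18 lie right of 0 in knockout against empty vector and left of it in both rescue comparisons, while Irf9 lies left of 0 in all 3.

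The genes whose levels over the 9 libraries were most like the mean of the 8 members were ranked by Pearson's r of log2 CPM, among 1778 protein-coding genes whose group means differed by at least 1 log2 unit. The 8 highest were Apol9b, Oasl2, Usp18, Apol9a, Xaf1, Abcc2, Mmp28 and Mmp19, with r from 0.990 to 0.997. The points share the 3 lines, which set most of r, so it is a description. Apol9b stood at 6.78 CPM in rescue, 111 CPM in knockout and 42.4 CPM in empty vector, and Oasl2 at 5.63, 67.5 and 29.0 CPM in the same order of lines. The members themselves had r of 0.896 (Gbp2) to 0.987 (Igtp) with their own mean. Among pairs of members, r was lowest between Gbp2 and Irgm2, at 0.679, and highest between Irgm1 and Irgm2, at 0.991.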

How the data were processed

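The authors deposited a table of raw read counts per gene, with FPKM values beside them. CASAVA, HISAT, HISAT2 and TopHat2 are named without roles in the submitters' processing notes, with the build mm10; the counter and its strand setting are not given in the sources used here. The submitters mention fewer knockout replicates in their design, but 3 were labelled and all were used. The log2 changes and p-values here are not the authors'. They come from edgeR 4.0.16 in R 4.3.3: filterByExpr by group, TMM factors, a robust quasi-likelihood model with 1 mean per line over all 9 libraries, an F-test per comparison and Benjamini-Hochberg adjustment over all 13326 genes tested, called under 0.05. SE was taken as the size of the log2 change over the root of F. All 8 members had at least 3 libraries over the filter's 0.574 CPM; Gbp2, Gbp9 and Iigp1 had none of these in rescue.

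No pair of replicates agreed within sampling noise (chi-square over degrees of freedom, 3.53 to 19.5). On simulated counts with known changes the test was checked first. The members, gene lists and rule for naming genes were chosen with earlier results of these data known; the rule took up to 4 genes per list by smallest adjusted p and up to 2 by largest, besides the interferons, receptors, Irf1, Irf9 and all tested Gbp and Irg genes, and 8 genes by likeness. Genes named for having few counts, the ratios, and Nlrc5, Socs1, Tyk2, Ido1, Casp4 and Mlkl were chosen after their values were seen. Promoters are from RefSeq (GRCm38.p6), exon overlaps and shared 50-base windows from GENCODE M21, whose coordinates equal the table's for all members but Iigp1. No protein sequence was used here, and some genes the rule would name are not reported here. Alternatives were RLE factors, library totals, other filters, DESeq2 1.42.0, limma voom (limma 3.58.1), fits of 2 groups, a replicate block and leaving out each library.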

Additional observations from a re-analysis of the deposited data

How the results depend on the processing

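All 8 members fell in rescue against knockout, and 4 rose in knockout against empty vector, under each of 17 alternatives; in rescue against empty vector 7 or 8 fell. Gbp2 in rescue against empty vector lost its call without 3 single libraries (-1.63 to -0.72 over the fits without 1 library; edgeR adjusted p up to 0.22) and was not tested in the fit of those 2 groups alone. Values near 0 changed sign in knockout against empty vector: Irgm1 with library totals as the scale (-0.056) and Irgm2 without knockout replicate 1 (0.012; range without 1 library -0.12 to 0.012), and neither was called. Library totals moved the median of all genes by -0.15 in knockout against empty vector and by 0.18 in rescue against knockout, where 5916 genes were then called higher, against 3928; higher genes were 69.6% and 51.9% of the calls. In knockout against empty vector they were 34.4% with library totals and 48.7% with TMM. The cause was not tested. By Spearman's rho, 1 of the 8 genes named as most alike to the members stayed among the highest 8. Same-numbered libraries did not deviate together (r from -0.15 to 0.045 over 9 pairs), and pairs with different numbers ran from -0.088 to 0.10. With 3 libraries per line these r cannot show that same-numbered libraries share no batch. The replicate block left all counts of members called as they were. It called 7890 genes in knockout against empty vector, and in rescue 7367 against knockout and 6091 against empty vector. Of 1122 counts over the other gene lists 41 moved by over 1.5 times, or to or from 0. The further Gbp and Irg genes called lower numbered 3 to 7 in rescue against knockout and 3 to 8 against empty vector. Brakes called higher in rescue against knockout numbered 2 to 7. Low counts limit Gbp9 and Iigp1 in knockout against empty vector.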

Other observations

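In knockout against empty vector 29.5% of all 13326 tested genes rose and 31.1% fell. In rescue 3928 of them rose and 27.3% fell against knockout, and 2988 rose and 25.1% fell against empty vector. Of 11 genes listed under inflammasome and cell death, 9 were tested. In knockout against empty vector 5 rose and 2 fell, in rescue against knockout 1 rose and 5 fell, and in rescue against empty vector 2 rose and 6 fell. The list also holds Apol9a and Apol9b, named above as most like the members. Both are counted among those that rose in knockout (1.05 and 1.40) and that fell in both rescue comparisons. Ripk3, a kinase of necroptosis, stood at 0.120 ± 0.125 CPM in rescue, 8.06 ± 1.24 in knockout and 1.23 ± 0.364 in empty vector (SD, n = 3 each). Zbp1, a nucleic acid sensor that acts with it, stood at 0.609 ± 0.193, 4.61 ± 0.560 and 1.45 ± 0.215 CPM in the same lines. Mlkl, the effector of necroptosis, went the other way in the comparisons with knockout, with a log2 change of -0.76 in knockout against empty vector (edgeR adjusted p = 9.6e-07) and 0.38 in rescue against knockout (edgeR adjusted p = 0.0021). In rescue against empty vector Mlkl was lower (-0.38, edgeR adjusted p = 0.0019), as were Ripk3 (-3.05) and Zbp1 (-1.25). The inflammatory caspase Casp1 rose in knockout by 1.93 ± 0.12 log2 units (SE) and stayed above empty vector in rescue (1.00 ± 0.12), whereas Casp4, the caspase that senses lipopolysaccharide after GBPs expose it, fell in both knockout and rescue against empty vector, by 1.00 and 0.92.

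A list of 15 genes tied to the placing of the GTPases on membranes held ubiquitin and ubiquitin-like machinery. It also held the galectins Lgals3 and Lgals8 and the cargo receptor Sqstm1. Of the 15, 5 rose and 4 fell in knockout against empty vector, 3 rose and 7 fell in rescue against knockout, and 5 rose and 8 fell in rescue against empty vector. The counts in knockout against empty vector lay near the shares of all genes, and with library totals as the scale they were 2 higher and 6 lower; in rescue against knockout they were then 5 higher and 4 lower. Gabarapl1 rose in knockout by 1.36 ± 0.07, and Trim21 fell in rescue against knockout by 1.60 ± 0.16. Of 5 prenylation genes, which serve the lipid anchor of some Gbp proteins, 2 rose and 3 fell in knockout against empty vector (1 and 3 with library totals): Icmt rose by 0.54 and Pggt1b, a geranylgeranyl transferase subunit, fell by 0.92. In empty vector, replicate 1 had the lowest CPM of the 3 libraries for each of the 8 members, with a sum of 101.7 CPM, against 129.0 and 128.6 CPM in replicates 2 and 3.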
